A study of Pyrus communis with 12 samples.

Results

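The change of gene expression in fruit skin between 2 and 5 days after full bloom (DAFB) was compared between the green-skinned pear ‘CF’ (Pyrus communis ‘Clapp Favorite’) and its red-skinned sport ‘RCF’ (‘Red Clapp Favorite’). The 12 libraries fell into 4 groups of 3 biological replicates, with skins pooled from 100 fruits in each replicate. ‘CF1’ and ‘RCF1’ were the skins of ‘CF’ and ‘RCF’ at 2 DAFB, when the fruits of both cultivars were similarly green. ‘CF2’ and ‘RCF2’ were the skins at 5 DAFB, when the cultivars differed in color. Trees of both cultivars stood in 1 orchard on Pyrus betulaefolia rootstocks, and each stage was sampled on a single day, so the stage and the day cannot be told apart. For each gene the change in ‘CF’ was subtracted from the change in ‘RCF’ on the log2(FPKM + 1) scale, that is (‘RCF2’ minus ‘RCF1’) minus (‘CF2’ minus ‘CF1’). This difference is called the interaction. An interaction above 0 means that the gene moved further up, or less far down, in ‘RCF’ than in ‘CF’. Of the 42760 genes in the deposited table, 25707 reached an FPKM of 1 or more in 3 or more libraries and were tested. The other 17053 stayed below this level, and 7766 of them were at 0 in every library.

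The skin of a young fruit covers an organ in which cells first divide and then expand, while the cuticle is laid down and the green tissue below it photosynthesizes. Red color in pear comes from anthocyanins, which share the flavonoid pathway with procyanidins. Chalcone synthase (CHS) and chalcone isomerase (CHI) open that pathway, the enzymes F3H and ANS act later in it, 4CL supplies its precursors, and glutathione S-transferases of the GSTF12 type are known from other plants to help carry anthocyanin to the vacuole. A color sport is a shoot of the parent cultivar that changed in color, so the cultivars share nearly all of their genome.

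The ‘CF1’ libraries stood apart from each other more than those of any other group. ‘CF1’ replicates 1 and 2 had a Pearson's r of 0.964 for log2(FPKM + 1), taken across the tested genes, which are no independent replicates of each other. ‘CF1’ replicate 3 had r of 0.911 with replicate 1 and 0.844 with replicate 2, whereas r lay between 0.983 and 0.991 for all replicate pairs of ‘CF2’, ‘RCF1’ and ‘RCF2’. The interactions were therefore computed with all 12 libraries and without ‘CF1’ replicate 3. ‘CF1’ replicate 2, kept in both fits, had r of 0.970 to 0.973 with the ‘RCF1’ libraries, above its r of 0.964 with ‘CF1’ replicate 1. The sums of FPKM over all genes ranged from 575100 to 636400 per library. The skin markers were present, with a summed FPKM of the 9 epidermis genes (SHINE2, WIN1, GLABRA2 and the Wax2 domain genes) between 203.3 and 329.2 in all libraries. The summed FPKM of the 68 xylem and vascular genes was 65.4 to 105.5 in ‘CF1’, 76.5 to 84.7 in ‘CF2’, 48.3 to 55.9 in ‘RCF1’ and 55.3 to 81.2 in ‘RCF2’, without overlap between cultivars at 2 DAFB, and it was highest of all in ‘CF1’ replicate 3. Of those 68 genes, 64 are laccases. The vascular regulators WOX4 (PCP026866), NAC7 (PCP043761), NAC105 (PCP044554) and NAC66 (PCP028501) were instead lowest of all in ‘CF1’ replicate 3. They were at 0.127, 0.1835, 0.521 and 0 FPKM there. The wax regulators WIN1 (PCP011340) and SHINE2 (PCP017394) were also lowest in that library, at 0 and 0.271 FPKM. GLABRA2 (PCP004632) was not, at 10.35 FPKM against 11.2 and 9.24 in ‘CF1’ replicates 1 and 2. The summed FPKM of the 89 chlorophyll-binding and photosystem genes was 7703 to 9102 in ‘CF1’, 9048 to 10180 in ‘CF2’, 5518 to 6863 in ‘RCF1’ and 6565 to 7312 in ‘RCF2’, without overlap between cultivars at either stage. In skin pieces, fewer cells of a type and less RNA per cell cannot be told apart.

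With all 12 libraries, 1019 of the 25707 genes (3.96%) had a called interaction, at an unadjusted P under 0.05 and a size of at least 1. The interaction was above 0 for 666 genes (2.59%) and below 0 for 353 (1.37%). None of these calls had an adjusted P under 0.05 in limma, although 4061 genes (15.8%) had an unadjusted P under 0.05, and the lowest adjusted P was 0.0594, shared by 10 genes, among them CHS (PCP023048) and the wound-induced gene PCP042085. Without ‘CF1’ replicate 3, 718 genes (2.79%) were called, 550 above 0 (2.14%) and 168 below 0 (0.654%), and 160 of them (0.622%) had an adjusted P under 0.05. The median interaction of all tested genes was -0.12 with 12 libraries and -0.05 without ‘CF1’ replicate 3, so the bulk of genes lay slightly below 0. Calls with the same direction in both fits numbered 550 (2.14%), of which 403 (1.57%) were above 0 and 147 (0.572%) below 0. Of these 550, 128 (0.498% of all tested genes) had an adjusted P under 0.05 in the fit without ‘CF1’ replicate 3. The number of calls depended on another library of ‘CF1’ as well, and without ‘CF1’ replicate 2 it was 2877, of which 1809 had an adjusted P under 0.05. Calls of the 12-library fit that also held with each of the 12 libraries left out in turn numbered 426 (1.66%), 310 above 0 (1.21%) and 116 below 0 (0.451%).

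**Figure D1:**
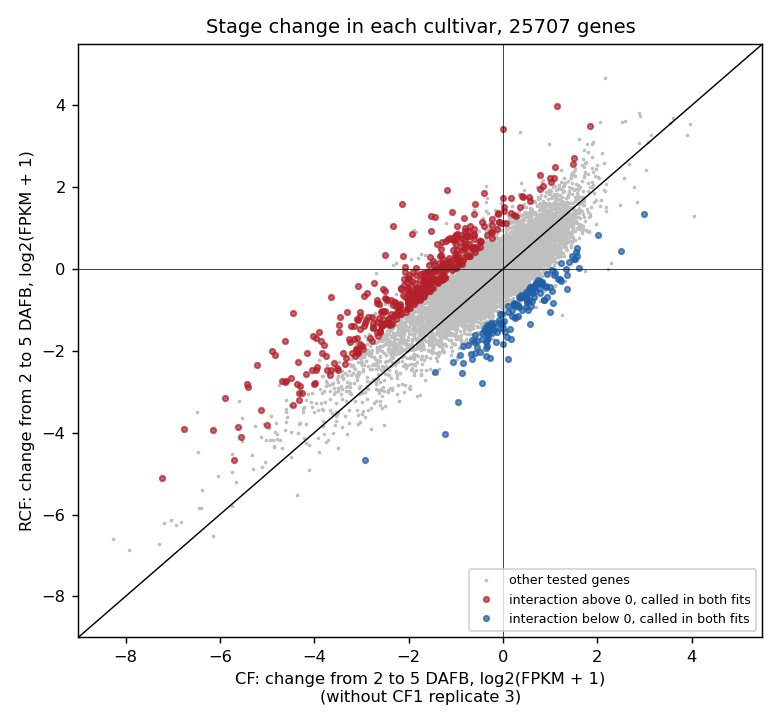
Change from 2 to 5 DAFB in ‘CF’ (horizontal axis, without ‘CF1’ replicate 3) and in ‘RCF’ (vertical axis), both as differences of log2(FPKM + 1), with 1 point for each of 25707 genes and a line where both changes are equal. Red points are the 403 genes with an interaction above 0 in both fits and blue points the 147 below 0, and most red points lie left of 0, where ‘CF’ went down.

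The larger group, with an interaction above 0, consisted mainly of genes that fell in ‘CF’. In the fit without ‘CF1’ replicate 3, 305 of the 403 genes fell in ‘CF’ between 2 and 5 DAFB, against 8.73% of all tested genes. Among them 185 had no called change in ‘RCF’, 115 fell in ‘RCF’ too, though less, and 5 rose. Of the remaining genes, 34 rose in ‘RCF’ (3.54% of all genes rose there) with no called change in ‘CF’, 7 rose in both cultivars and 57 had no called change in either. Of the 147 genes below 0, 68 fell in ‘RCF’ with no called change in ‘CF’, while 6.71% of all genes fell in ‘RCF’. A further 21 rose in ‘CF’ (3.28% of all genes did) with no called change in ‘RCF’, 53 had no called change in either cultivar, 4 fell in both and 1 rose in both. Seen by stage, 199 of the 403 genes were lower in ‘RCF1’ than in ‘CF1’ (1.72% of all genes) and 84 were higher in ‘RCF2’ than in ‘CF2’ (0.891%). Of the 147 genes, 58 were higher in ‘RCF1’ than in ‘CF1’ (0.681% of all genes) and 15 lower in ‘RCF2’ than in ‘CF2’ (0.358%). At 2 DAFB the libraries of the cultivars did not overlap for 67.7% of the 403 genes and 81.6% of the 147, against 29.1% of all tested genes. At 5 DAFB they did not overlap for 51.4% and 53.7%, against 29.9%. All these comparisons share libraries with the interaction, so they describe the called genes and do not test them.

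Many of the genes above 0 were early genes that were nearly gone at 5 DAFB. The mean FPKM at 5 DAFB was below 1 in both cultivars for 108 of the 403 genes (26.8%) and for 12 of the 147 (8.16%), against 4.4% of all tested genes. Where both cultivars are near 0 at 5 DAFB, the interaction on this scale is close to the difference between ‘CF1’ and ‘RCF1’ alone. Within ‘CF1’, replicate 3 was the highest and replicate 2 the lowest of the 3 libraries for 252 of the 403 genes, an order found for 6203 of the 25707 tested genes. For 82 of the 147 genes below 0 the order was the opposite, as it was for 10616 of all tested genes. The part of this spread in the calls was not tested beyond leaving out libraries.

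Families were taken from the domain name that the deposited table gives each gene. Of 421 families with at least 10 tested genes, 266 had no gene called in both fits and 38 had at least 3. The share of members called in both fits was highest in the wound-induced family, 8 of 15 (53.3%), followed by major latex proteins (30%), cysteine synthase A (27.3%), pectinesterase inhibitors and DUF640 proteins (25% each) and the lateral organ boundaries (LOB) family (23.8%). The share over all tested genes was 2.14%. Only families with at least 3 called members are described, down to the last of the 12 highest ranks, where 3 families were tied. No test was made of a family as a whole, and members with near-identical sequences can share reads, so values of close copies are uncertain.

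**Figure D2:**
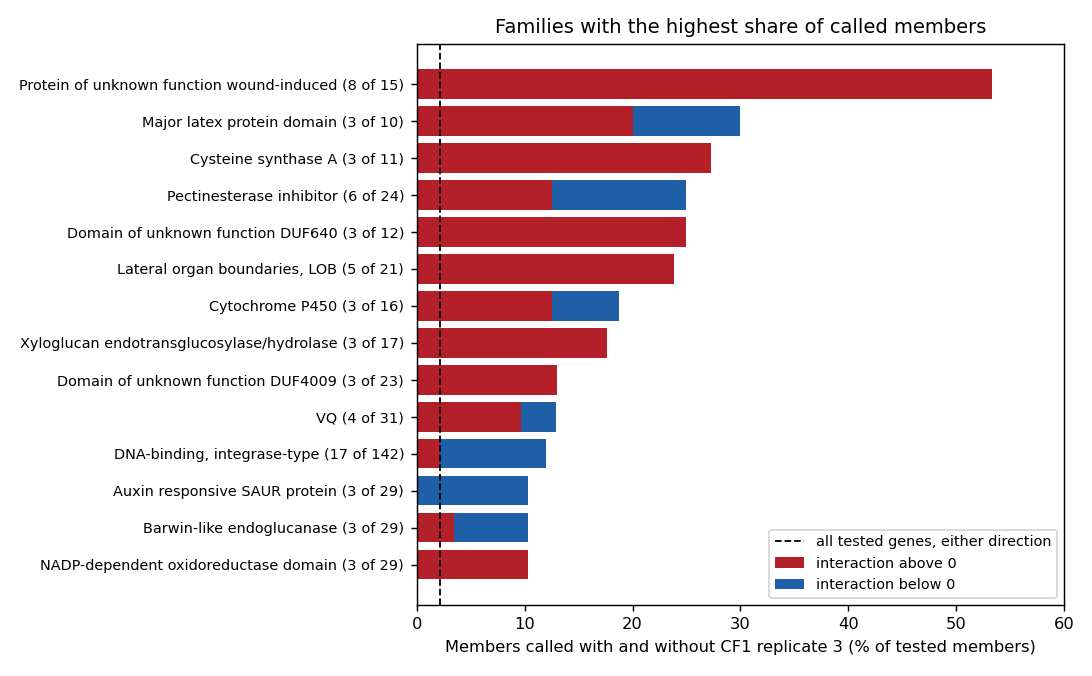
Share of tested members with an interaction called in both fits, in percent, for the 14 families described, split into interactions above 0 (red) and below 0 (blue), with the counts beside each name. The dashed line is the share among all tested genes, 2.14%, and the wound-induced family stands at 53.3%, all of it above 0.

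Genes of the wound-induced domain family encode small proteins of unknown function whose transcripts are known to accumulate after wounding in other plants. Of 17 in the table, 15 were tested, and 8 were called in both fits, all with an interaction above 0. None was called below 0 in either fit. Of all tested genes, 1.57% were called above 0 in both fits. The median interaction of the 15 genes was 1.03 with 12 libraries and 1.14 without ‘CF1’ replicate 3, and in the latter fit 8 of them fell in ‘CF’. In ‘RCF’ 2 of the 15 fell and none rose.

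PCP016595 (scaffold00271, 194406 to 195045, plus strand) had the largest interaction of the family. Its FPKM in replicates 1 to 3 was 97.7, 54.7 and 154 in ‘CF1’ and 10.6, 6.64 and 10.4 in ‘CF2’. In ‘RCF1’ it was 118, 100.4 and 146, and in ‘RCF2’ 89.8, 75.6 and 72.7. The cultivars overlapped at 2 DAFB but not at 5 DAFB. The interaction was 2.64 ± 0.45 (SE) with 12 libraries and 2.29 ± 0.34 without ‘CF1’ replicate 3 (adjusted P 0.0193).

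PCP042085 was among the 10 genes that shared the lowest adjusted P in the 12-library fit. It was at 6.97, 5.93 and 6.93 FPKM in ‘CF1’ and at 1.86, 1.64 and 2.0 in ‘CF2’. In ‘RCF1’ it was at 12, 14.9 and 16.7 and in ‘RCF2’ at 26.4, 17.6 and 25.1, so that the cultivars did not overlap at either stage and moved apart. The interaction was 2.05 ± 0.23 (SE) with 12 libraries and 2.01 ± 0.23 without ‘CF1’ replicate 3 (adjusted P 0.00718). PCP020689 behaved alike at higher levels, with 23.9, 28.1 and 18.4 FPKM in ‘CF1’, 11.6, 6.7 and 12.9 in ‘CF2’, 59.6, 59.6 and 79.2 in ‘RCF1’ and 110.0, 98.9 and 105 in ‘RCF2’. Its interaction was 1.79 ± 0.32 (SE) and 1.95 ± 0.30 in the respective fits (adjusted P 0.0212 without ‘CF1’ replicate 3).

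In PCP007379 the transcript went down in both cultivars, from 164, 87.5 and 267 FPKM in ‘CF1’ to 12.5, 5.2 and 14.2 in ‘CF2’, and from 243, 228 and 286 in ‘RCF1’ to 99.5, 77.8 and 80.2 in ‘RCF2’. Its interaction was 2.31 ± 0.56 (SE) with 12 libraries and 1.93 ± 0.47 without ‘CF1’ replicate 3 (adjusted P 0.0761). The other called members were PCP031811, PCP016596, PCP042398 and PCP016597, with interactions of 1.85, 1.72, 1.64 and 1.14 without ‘CF1’ replicate 3, of which that of PCP042398 had an adjusted P of 0.0462. PCP016597 stayed at or below 0.27 FPKM in ‘CF’ and reached 1.2 to 3.91 FPKM in ‘RCF2’. It was called with 7 of the 12 libraries left out, whereas the other 7 called members were called with every library left out.

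Members of the family that lie side by side did not move alike. Of the 15 tested genes, 5 lie on scaffold00271 between 190596 and 215007. PCP016595, PCP016596 and PCP016597 were called above 0, while their neighbour PCP016594 had an interaction of 0.17 with 12 libraries and -0.18 without ‘CF1’ replicate 3, and PCP041087 had -0.76 and -0.74. PCP016594 was at 20.6, 5.19 and 22.8 FPKM in ‘CF1’ and listed at 0 in all ‘CF2’ libraries, and it also dropped in ‘RCF’, from 32.8, 20.2 and 33.1 to 2.13, 0.767 and 0.974. On scaffold02194, PCP042084 had an interaction of -0.79 with 12 libraries and -0.65 without ‘CF1’ replicate 3, beside 2.05 and 2.01 for PCP042085.

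**Figure D3:**
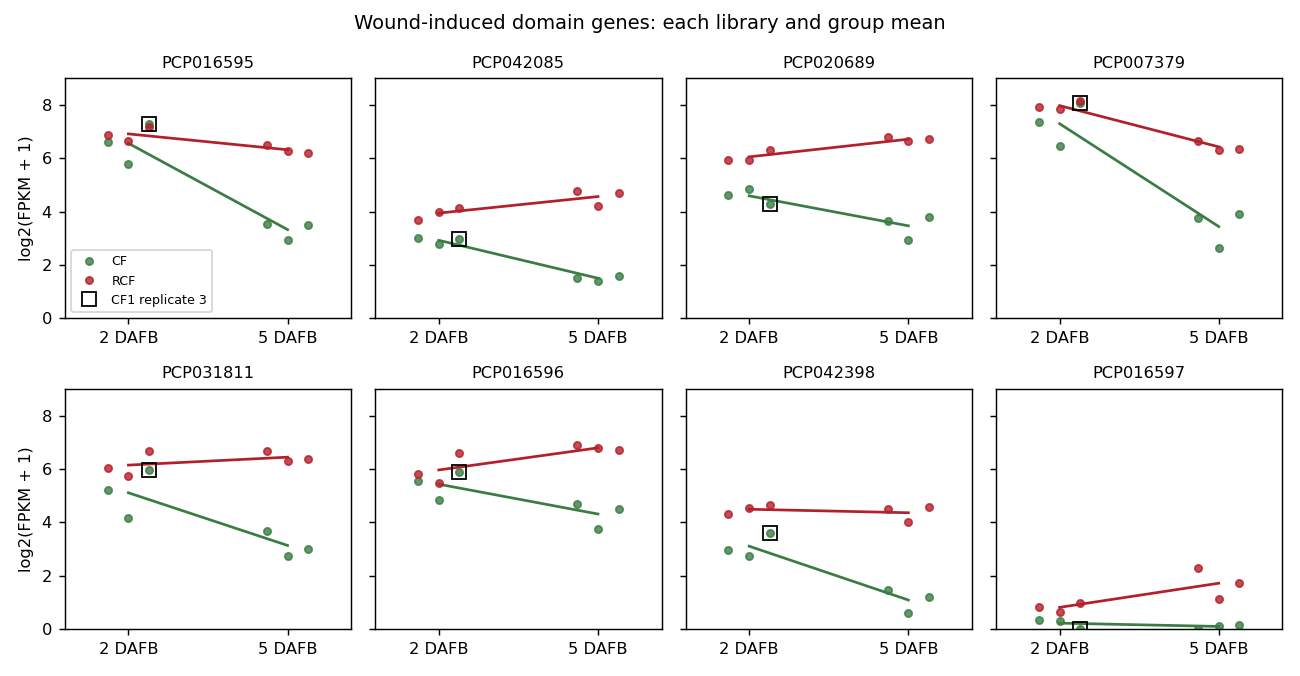
Log2(FPKM + 1) of the 8 wound-induced domain genes called in both fits at 2 and 5 DAFB, with 1 point per library, lines joining the means of 3 replicates, ‘CF’ in green and ‘RCF’ in red. ‘CF1’ replicate 3 is boxed, and in all 8 genes the 3 ‘RCF2’ points lie above the 3 ‘CF2’ points. The 8 genes were picked for an interaction above 0. The cultivars did not overlap at 5 DAFB for 51.4% of all genes called above 0 in both fits and for 29.9% of all tested genes.

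Among the flavonoid enzymes on the study's list of core pigment genes the interaction was above 0 for most, and CHS stood out. The list also holds regulators and does not cover the whole pathway. Of the 20 core pigment genes of the study, 19 were tested, and 3 were called above 0 in both fits, CHS, 4CL2 and CHI, against 1.57% of all genes. The study chose this list on these samples, so its direction is not independent evidence. The median interaction of the 19 genes was 0.34 with 12 libraries and 0.60 without ‘CF1’ replicate 3, beside -0.12 and -0.05 for all genes, and the values were above 0 for 15 and 16 of the 19.

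PCP023048 (scaffold00375, 176126 to 177777, plus strand), the CHS of the study, was low in ‘RCF’ first and high later. Its FPKM was 7.27, 11.2 and 14.3 in ‘CF1’, 16.8, 30.7 and 18.7 in ‘CF2’, 0.75, 2.16 and 1.48 in ‘RCF1’ and 39.5, 35.0 and 35.8 in ‘RCF2’. The cultivars did not overlap at either stage and changed places between stages. The interaction was 3.03 ± 0.40 (SE) with 12 libraries and 2.83 ± 0.38 without ‘CF1’ replicate 3 (adjusted P 0.0121), and it was called with every library left out. The chalcone synthase gene PCP023049 beside it on the same scaffold had an interaction of 0.28 with 12 libraries and 0.52 without ‘CF1’ replicate 3 and was not called. The study measured PCP023048 by qPCR, and its primers are shown to identify the gene meant, 5′ to 3′.
PcCHS forward: acatctccgtgaagtagg
PcCHS reverse: aatccagaagagcgagtt

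The precursor and isomerase genes went the same way by smaller amounts. 4CL2 (PCP018170) was at 5.85, 6.38 and 6.6 FPKM in ‘CF1’, 9.36, 15.0 and 9.9 in ‘CF2’, 3.62, 3.6 and 4.24 in ‘RCF1’ and 19.4, 17.1 and 16.8 in ‘RCF2’. Here too ‘RCF’ was below ‘CF’ at 2 DAFB and above it at 5 DAFB, without overlap. Its interaction was 1.22 ± 0.22 (SE) with 12 libraries and 1.19 ± 0.22 without ‘CF1’ replicate 3 (adjusted P 0.0416). CHI (PCP021141) had an interaction of 1.03 ± 0.24 (SE) and 1.09 ± 0.24 in the respective fits (adjusted P 0.0596 without ‘CF1’ replicate 3). It was close to the limit of 1, and 7 of the 12 fits with a library left out called it.

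Enzymes and regulators of the core list that missed the limit of 1 included ANS (PCP027029), the oxygenase that forms anthocyanidins, at 0.83 ± 0.24 (SE) with 12 libraries, 4CL1 (PCP003610) at 0.90 ± 0.24, F3H (PCP013732) at 0.64 ± 0.21 and the CHI gene PCP039844 at 0.61 ± 0.25. Without ‘CF1’ replicate 3 the values were 0.83 for ANS, 0.77 for 4CL1, 0.74 for F3H and 0.80 for PCP039844. ANS was at 20.8, 19.4 and 20.1 FPKM in ‘CF1’, 131, 202 and 149 in ‘CF2’, 16.0, 22.1 and 17.3 in ‘RCF1’ and 292, 236 and 248 in ‘RCF2’. It therefore went up steeply in both cultivars. The CHI gene PCP027877 had an interaction of -0.18 with 12 libraries and 0.08 without ‘CF1’ replicate 3. The transcription factor gene bZIP1 (PCP003743) was called only with 12 libraries, at 1.01 ± 0.30 (SE) against 0.99 ± 0.31 without ‘CF1’ replicate 3.

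GSTF12 (PCP025171) separated the cultivars at both stages, but its change with stage did not differ by the limit used. It was at 1.71, 3.15 and 1.24 FPKM in ‘CF1’ and 84.6, 106 and 96.9 in ‘RCF1’, and at 6.75, 7.76 and 8.48 in ‘CF2’ and 234, 177 and 174 in ‘RCF2’. The interaction was -0.55 ± 0.30 (SE) with 12 libraries and -0.35 ± 0.25 without ‘CF1’ replicate 3. The anthocyanin regulator gene MYB114 (PCP008283) was below 0.2 FPKM in all ‘CF’ libraries and between 2.19 and 6.31 FPKM in ‘RCF’. Its interaction was 0.60 ± 0.23 (SE) with 12 libraries and 0.60 ± 0.25 without ‘CF1’ replicate 3. The log2(FPKM + 1) scale understates changes at low FPKM, which affects GSTF12 and MYB114 in ‘CF’. GAI1 (PCP019649), a DELLA repressor of gibberellin responses measured by qPCR in the study, was called below 0 only with 12 libraries, at -1.07 ± 0.41 (SE) against -0.64 ± 0.18 without ‘CF1’ replicate 3, and it was at 0.449 FPKM in ‘CF1’ replicate 3 against 2.4 and 2.69 in the other ‘CF1’ libraries.

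**Figure D4:**
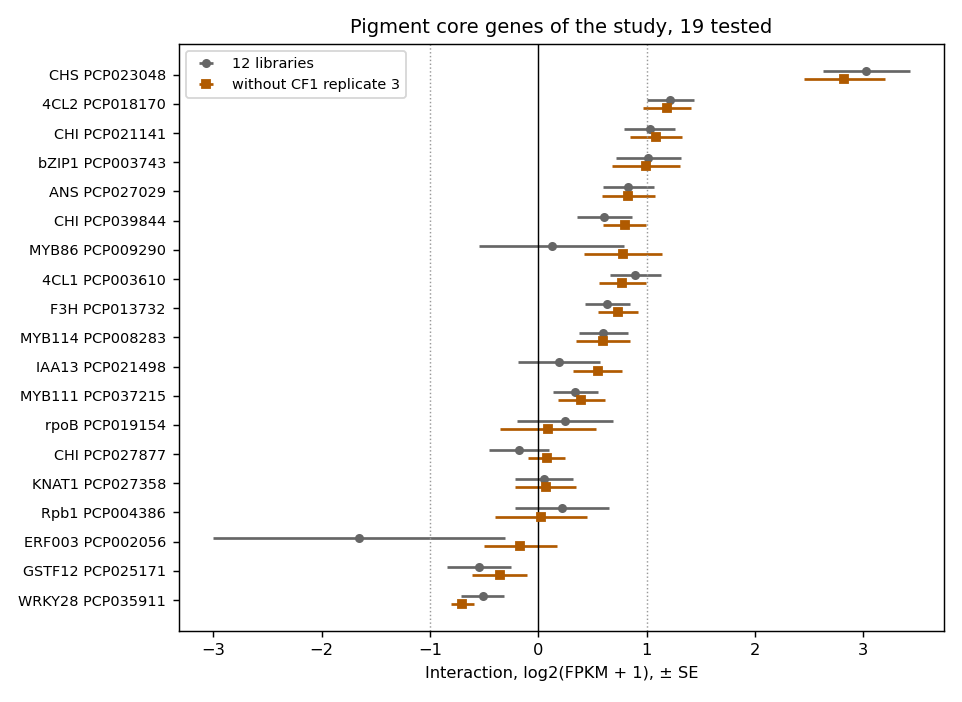
Interaction on the log2(FPKM + 1) scale ± SE for the 19 tested core pigment genes, with 12 libraries (grey circles) and without ‘CF1’ replicate 3 (orange squares), and dotted lines at the limits of -1 and 1. CHS lies furthest right at 3.03 and 2.83, and ERF003 moves most between the fits, from -1.65 to -0.17.

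Among transcription factors, the AP2/ERF genes bind DNA through the AP2 domain and include ethylene response and cold response factors. The table lists them under the domain name DNA-binding, integrase-type. Of 142 tested genes, 14 were called below 0 in both fits and 3 above 0, against 0.572% and 1.57% of all genes. The median interaction was -0.13 with 12 libraries and 0.00 without ‘CF1’ replicate 3, beside -0.12 and -0.05 for all genes. In the fit without ‘CF1’ replicate 3 alone, 11 were called above 0 and 14 below 0.

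PCP008210 was at 11.4, 8.07 and 1.32 FPKM in ‘CF1’, 21.3, 22.4 and 18.8 in ‘CF2’, 12.1, 13.9 and 12.6 in ‘RCF1’ and 9.38, 5.45 and 12 in ‘RCF2’. The cultivars did not overlap at 5 DAFB, where ‘CF’ was the higher. The interaction was -2.31 ± 0.71 (SE) with 12 libraries and -1.57 ± 0.33 without ‘CF1’ replicate 3 (adjusted P 0.0511). PCP009299 was at 19.8, 22.4 and 11.5 FPKM in ‘CF1’ and 11.8, 35.0 and 26.6 in ‘CF2’, but at 32.5, 48.5 and 24.0 in ‘RCF1’ and 8.79, 7.92 and 14.1 in ‘RCF2’, with an interaction of -2.02 ± 0.57 (SE) with 12 libraries and -1.74 ± 0.54 without ‘CF1’ replicate 3 (adjusted P 0.14).

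The ERF gene PCP044584, annotated RAP2-4, was lower in ‘RCF’ at both stages and more so at 5 DAFB. It was at 24.5, 15.4 and 26.2 FPKM in ‘CF1’, 9.34, 8.84 and 8.16 in ‘CF2’, 12.9, 9.03 and 13.2 in ‘RCF1’ and 1.55, 1.93 and 1.33 in ‘RCF2’. Its interaction was -1.07 ± 0.28 (SE) with 12 libraries and -1.21 ± 0.27 without ‘CF1’ replicate 3. The neighbours PCP012284, annotated as the cold response factor DREB1D, and PCP012285 on scaffold01128 were called below 0 with -1.06 and -1.03 without ‘CF1’ replicate 3. PCP044584 was called in 8 and PCP012284 in 6 of the 12 fits with a library left out. The 3 genes above 0 included PCP016876, an ethylene response factor that was at 6.7, 3.24 and 4.79 FPKM in ‘CF1’, at 0.96, 0.622 and 0.523 in ‘RCF1’ and at or below 0.073 in all libraries of 5 DAFB, so that its interaction of 1.76 ± 0.27 (SE) with 12 libraries (1.76 ± 0.29 without ‘CF1’ replicate 3, adjusted P 0.0287) comes from 2 DAFB. PCP011973 of this family also had a mean FPKM below 1 at 5 DAFB in both cultivars.

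**Figure D5:**
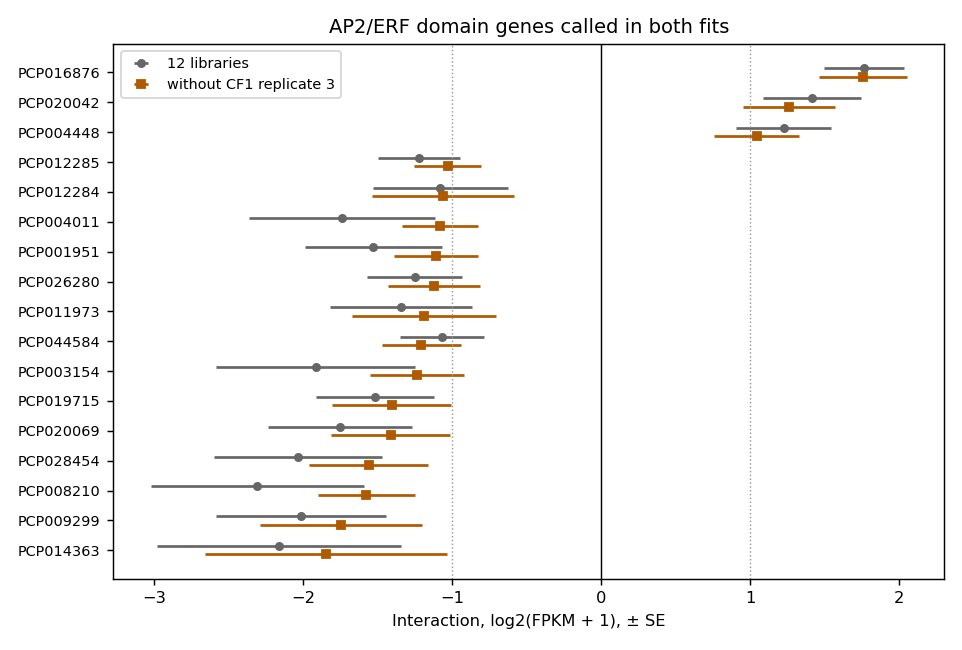
Interaction on the log2(FPKM + 1) scale ± SE for the 17 AP2/ERF domain genes called in both fits, with 12 libraries (grey circles) and without ‘CF1’ replicate 3 (orange squares), and dotted lines at the limits of -1 and 1. The 14 genes left of 0 move toward 0 in most cases when the library is left out, and 3 genes lie right of 0.

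LOB genes are plant-specific transcription factor genes known for roles at organ boundaries, and LBD37 to LBD39 of Arabidopsis also respond to nitrogen and repress anthocyanin genes. Of 21 tested, 5 were called above 0 in both fits and none below 0 in either. The shares of all tested genes called in both fits were 1.57% above 0 and 0.572% below 0. All 5 LOB genes were called with every library left out. PCP024388 was at 124, 79.2 and 183 FPKM in ‘CF1’, 25.3, 21.6 and 21.2 in ‘CF2’, 176, 139 and 199 in ‘RCF1’ and 163, 161 and 161 in ‘RCF2’. The cultivars overlapped at 2 DAFB, and at 5 DAFB ‘RCF’ was far above ‘CF’. The interaction was 2.30 ± 0.35 (SE) with 12 libraries and 2.01 ± 0.25 without ‘CF1’ replicate 3 (adjusted P 0.0089). PCP008830, annotated as LBD38, was at 9.91, 5.73 and 8.9 FPKM in ‘CF1’, 1.23, 3.29 and 3.1 in ‘CF2’, 8.07, 8.06 and 7.55 in ‘RCF1’ and 9.1, 8.45 and 7.12 in ‘RCF2’, with an interaction of 1.45 ± 0.35 (SE) and 1.38 ± 0.36 in the respective fits. PCP021398, annotated as LBD11, was higher at the later stage in ‘RCF’, from 17.5, 11.5 and 14.8 to 36.4, 40.2 and 37.6 FPKM, with 19.5, 24.7 and 15.3 in ‘CF1’ and 14.4, 23.6 and 24.5 in ‘CF2’. Its interaction was 1.29 ± 0.32 (SE) with 12 libraries and 1.46 ± 0.30 without ‘CF1’ replicate 3 (adjusted P 0.04999). The remaining members, PCP004502 and PCP010587, had a mean FPKM below 1 at 5 DAFB in both cultivars.

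DUF640 proteins carry the ALOG domain of the LIGHT-DEPENDENT SHORT HYPOCOTYLS (LSH) proteins, which are nuclear regulators of organ boundaries. Of 12 tested genes, 3 were called above 0 in both fits, against 1.57% of all tested genes. PCP015225, annotated as LSH7, was at 1.5, 1.97 and 0.177 FPKM in ‘CF1’, 4.63, 4.86 and 4.98 in ‘CF2’, 0.234, 0.303 and 0.317 in ‘RCF1’ and 6.05, 5.89 and 6.89 in ‘RCF2’. It went from below ‘CF1’ replicates 1 and 2 to above all ‘CF2’ libraries. Its interaction was 1.0 ± 0.38 (SE) with 12 libraries and 1.4 ± 0.15 without ‘CF1’ replicate 3 (adjusted P 0.00516), and 7 of the 12 fits with a library left out called it. PCP029008 was likewise below ‘CF1’ at 2 DAFB but overlapped with ‘CF2’ at 5 DAFB, with 0.366, 0.497 and 0.45 FPKM in ‘RCF1’ and 6.04, 5.7 and 6.56 in ‘RCF2’, and an interaction of 1.22 ± 0.32 (SE) with 12 libraries and 1.52 ± 0.19 without ‘CF1’ replicate 3 (adjusted P 0.0105). PCP004513 differed from these, since it dropped in both cultivars, from 53.5, 29.4 and 103 FPKM in ‘CF1’ to 2.44, 2.94 and 3.94 in ‘CF2’.

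WRKY genes had 5 of 59 above 0 in both fits and none below 0, and the median interaction was 0.28 with 12 libraries and 0.26 without ‘CF1’ replicate 3. Of these 5, only 1 was called with every library left out. The defense regulator WRKY40 (PCP031143) was at 96.1, 116 and 95.3 FPKM in ‘CF1’, 7.2, 11.6 and 18.4 in ‘CF2’, 139.6, 154 and 104 in ‘RCF1’ and 25.4, 42.2 and 28.6 in ‘RCF2’. Its interaction of 1.0 ± 0.42 (SE) with 12 libraries and 1.05 ± 0.43 without ‘CF1’ replicate 3 was at the limit. NAC genes had 4 of 100 above 0 and none below 0, bHLH genes 4 above and 2 below 0 of 111, and MYB genes 3 above and 2 below 0 of 227. Of all tested genes, 1.57% were called above 0 and 0.572% below 0 in both fits. The share of MYB genes called, 2.2%, was near the 2.14% of all tested genes. VQ proteins, which are partners of WRKY factors, had 3 above and 1 below 0 of 31. The VQ gene PCP007050 was at 96.0, 41.7 and 163 FPKM in ‘CF1’ and 32.4, 14.3 and 25.2 in ‘RCF1’, but between 7.31 and 12.9 FPKM in all libraries of 5 DAFB. In PCP019770 and PCP024469, also called, the mean FPKM at 5 DAFB was below 1 in both cultivars.

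Genes of the cell wall were called in both directions. Xyloglucan endotransglucosylase/hydrolases (XTH), which cut and rejoin the xyloglucan that ties cellulose fibrils together, had 3 of 17 above 0 and none below. The shares of all tested genes called in both fits were 1.57% above 0 and 0.572% below 0. Only 1 XTH gene was called with every library left out. PCP025350 was at 44.4, 65.3 and 10.3 FPKM in ‘CF1’, 9.31, 10.9 and 23.9 in ‘CF2’, 28.3, 49.1 and 24.7 in ‘RCF1’ and 64.2, 64.1 and 52.1 in ‘RCF2’. The cultivars overlapped at 2 DAFB and not at 5 DAFB. The interaction was 2.02 ± 0.82 (SE) with 12 libraries and 2.78 ± 0.49 without ‘CF1’ replicate 3 (adjusted P 0.0354), but 4 of the 12 fits with a library left out called it. PCP017881, the most abundant of the 3, fell from 412, 183 and 753 FPKM in ‘CF1’ to 11.8, 13.5 and 12.2 in ‘CF2’, and from 192, 80.3 and 174 in ‘RCF1’ to 21.4, 24.9 and 12.5 in ‘RCF2’.

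Expansins, which loosen the wall during cell growth, are listed under the domain name Barwin-like endoglucanase. Of the 29 tested genes with this name, 2 were called below 0 and 1 above 0 in both fits. The shares of all tested genes were 0.572% and 1.57%. Not all 29 are shown to be expansins, and PCP002259, called below 0, has no annotation. Expansin-A4 (PCP026323) was at 26.3, 35.4 and 16.2 FPKM in ‘CF1’, 24.1, 23.6 and 18.8 in ‘CF2’, 28.9, 36.2 and 35.5 in ‘RCF1’ and 9.95, 10.6 and 11.2 in ‘RCF2’. It was thus lower in ‘RCF2’ than in every other library. The interaction was -1.41 ± 0.32 (SE) with 12 libraries and -1.12 ± 0.20 without ‘CF1’ replicate 3 (adjusted P 0.0371). Expansin-like B1 (PCP029421), called above 0, was listed at 0 in all libraries of 5 DAFB.

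The pectinesterase inhibitor domain is shared by inhibitors of pectin methylesterase and of invertase, and 3 of 24 tested genes were called above 0 and 3 below 0 in both fits. The 3 above 0 were early genes. PCP028856, annotated as an inhibitor of fructosidase, was at 316, 148 and 513 FPKM in ‘CF1’ and 92.3, 10.1 and 67.4 in ‘RCF1’, and at or below 0.519 FPKM in all libraries of 5 DAFB. PCP039031 and PCP035130 likewise had a mean FPKM below 1 at 5 DAFB in both cultivars. Of the 3 below 0, PCP013348 was the most abundant, with 41.4, 69.5 and 13.6 FPKM in ‘CF1’, 94.5, 78.6 and 68.5 in ‘CF2’, 76.1, 68.7 and 84.1 in ‘RCF1’ and 27.2, 32.0 and 29.0 in ‘RCF2’. The cultivars did not overlap at 5 DAFB. Its interaction was -2.54 ± 0.61 (SE) with 12 libraries and -1.91 ± 0.26 without ‘CF1’ replicate 3 (adjusted P 0.0133). Laccases, which polymerize lignin precursors, had 2 of 21 called above 0 and none below, against 1.57% and 0.572% of all tested genes.

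Several enzyme families had called genes that were abundant at 2 DAFB and scarce at 5 DAFB in both cultivars. Genes of the NADP-dependent oxidoreductase domain had 3 of 29 above 0 and none below. PCP013305 was at 459, 124 and 478 FPKM in ‘CF1’ and 86.8, 6.09 and 72.9 in ‘RCF1’, and at or below 2.0 FPKM in all libraries of 5 DAFB. Its interaction was 3.19 ± 1.22 (SE) with 12 libraries and 2.86 ± 1.25 without ‘CF1’ replicate 3, with an adjusted P of 0.268. In ‘CF1’ and in ‘RCF1’ alike, replicate 2 was the lowest by far. The other called members, PCP035462 and PCP013307, and the cysteine synthases PCP024415 and PCP024416 had a mean FPKM below 1 at 5 DAFB in both cultivars. Cysteine synthases, which make the last step of cysteine formation, had 3 of 11 above 0, among them PCP045133, which was at 239.7, 114 and 501 FPKM in ‘CF1’, 59.9, 53.6 and 54.7 in ‘RCF1’ and between 11.5 and 15.7 FPKM at 5 DAFB. Genes of DUF4009, a domain name that the table gives to 4CL2, had 3 of 23 above 0. Its gene PCP044811 was at 550, 125 and 769 FPKM in ‘CF1’ and 141, 37.7 and 117 in ‘RCF1’, and between 4.03 and 5.23 at 5 DAFB, and the cultivars overlapped at 2 DAFB. UDP-sugar glycosyltransferases had 6 of 117 above 0 and none below 0, and all 6 had a mean FPKM below 1 at 5 DAFB in both cultivars. Of all P450 genes, which carry out oxidations in many pathways, 7 of 163 were called above 0 and 7 below 0, 5 of them with a mean FPKM below 1 at 5 DAFB in both cultivars. The shares over all tested genes were 1.57% above 0 and 0.572% below 0. Without ‘CF1’ replicate 3, an adjusted P under 0.05 was reached by 2 of the DUF4009 genes called in that fit, 5 P450 genes and 1 glycosyltransferase, and by no called NADP-dependent oxidoreductase or cysteine synthase.

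Major latex proteins share the fold of the birch allergen Bet v 1 and were first described in poppy latex. Of 10 tested, 2 were called above 0 and 1 below 0 in both fits. The shares of all tested genes were 1.57% and 0.572%. PCP021027 was at 23.6, 8.3 and 37.2 FPKM in ‘CF1’, 1.48, 1.36 and 2.27 in ‘CF2’, 4.0, 1.63 and 3.95 in ‘RCF1’ and 4.11, 4.23 and 4.1 in ‘RCF2’. ‘RCF’ was below ‘CF’ at 2 DAFB and above it at 5 DAFB, without overlap. The interaction was 3.30 ± 0.61 (SE) with 12 libraries and 2.86 ± 0.50 without ‘CF1’ replicate 3 (adjusted P 0.0333). PCP009401 went the other way, with 26.1, 9.73 and 8.03 FPKM in ‘CF1’, 64.4, 108 and 128 in ‘CF2’, 39.5, 40.2 and 43.4 in ‘RCF1’ and 99.8, 78.3 and 22.4 in ‘RCF2’, and its ‘RCF2’ libraries spread widely. Of the 10 tested genes, 6 lie on scaffold00074, and 2 of those were called.

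Auxin-responsive SAUR genes, which code for small proteins that promote cell expansion, had 3 of 29 below 0 in both fits and none above, with a median of -0.55 with 12 libraries and -0.30 without ‘CF1’ replicate 3. With 12 libraries, 8 were called below 0 and 3 above 0, against 1.37% and 2.59% of all tested genes. Without ‘CF1’ replicate 3, 3 were called below 0 and none above 0. In both fits, 0.572% of all tested genes were called below 0 and 1.57% above 0. PCP011894, annotated as SAUR72-like, was high in ‘RCF1’ only. It was at 43.5, 34.2 and 28.6 FPKM in ‘CF1’, 33.6, 31.9 and 29.1 in ‘CF2’, 133, 156 and 185 in ‘RCF1’ and 52.6, 56.1 and 52.2 in ‘RCF2’. Its interaction was -1.38 ± 0.22 (SE) with 12 libraries and -1.24 ± 0.19 without ‘CF1’ replicate 3 (adjusted P 0.0211). SAUR50 (PCP040169), named by the study, was called only with 12 libraries, at -1.27 ± 0.50 (SE) against -0.80 ± 0.31, and was at 0.115 FPKM in ‘CF1’ replicate 3 against 1.98 and 1.85 in the other ‘CF1’ libraries.

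Nitrate reductase and nitrite reductase reduce nitrate to ammonium, and 2 of the 3 genes with these domains were called below 0 in both fits, against 0.572% of all genes. Nitrate reductase PCP024822 was at 23.3, 50.7 and 16.5 FPKM in ‘CF1’, 54.3, 58.2 and 48.7 in ‘CF2’, 18.5, 10.2 and 14.2 in ‘RCF1’ and 6.25, 10.3 and 7.07 in ‘RCF2’. All ‘CF2’ libraries lay above all ‘RCF’ libraries. The interaction was -1.73 ± 0.50 (SE) with 12 libraries and -1.40 ± 0.42 without ‘CF1’ replicate 3 (adjusted P 0.127). The nitrite/sulphite reductase domain gene PCP023499 had -1.02 ± 0.34 (SE) and -1.04 ± 0.35, with 85.2, 82.4 and 88.0 FPKM in ‘CF1’ and 7.02, 16.5 and 10.1 in ‘RCF2’, and 6 of the 12 fits with a library left out called it. The other gene, PCP020355, had -0.66 ± 0.36 with 12 libraries and -0.96 ± 0.26 without ‘CF1’ replicate 3 and was not called.

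Pyruvate decarboxylase opens the route from pyruvate to ethanol, and of the 14 tested genes on the low-oxygen list its genes PCP002576 and PCP005592 were called below 0 in both fits, with none above. The share of all genes called below 0 was 0.572%, and the interaction was above 0 for 2 of the 14 genes with 12 libraries and for 5 without ‘CF1’ replicate 3. PCP002576 was at 111, 179 and 33.0 FPKM in ‘CF1’, 228, 248 and 210.5 in ‘CF2’, 371, 456 and 415 in ‘RCF1’ and 277, 288 and 287 in ‘RCF2’. The cultivars did not overlap at either stage, and the gap narrowed from 2 to 5 DAFB. The interaction was -1.92 ± 0.65 (SE) with 12 libraries and -1.23 ± 0.23 without ‘CF1’ replicate 3 (adjusted P 0.0399).

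Among abundant genes with an adjusted P under 0.05 without ‘CF1’ replicate 3, some of the highest and lowest interactions belonged to genes of no described family. PCP021456, with no domain name, was at 23.9, 66.1 and 3.67 FPKM in ‘CF1’, 3.88, 9.59 and 14.6 in ‘CF2’, 8.9, 10.6 and 8.79 in ‘RCF1’ and 26.6, 30.9 and 33.3 in ‘RCF2’. It had the highest interaction of this group, 3.72 ± 0.61 (SE), but 2.68 ± 1.08 with 12 libraries, and the ‘CF1’ libraries spanned the values of all other groups. PCP019723, with a NAD(P)-binding domain, followed with 3.43 ± 0.36 (adjusted P 0.00516), and 2.59 ± 0.82 with 12 libraries. It was at 0.822 to 1.42 FPKM in ‘RCF1’ against 20.6 to 26.2 in ‘RCF2’. In ‘CF1’ it was at 6.94, 16.35 and 1.03 FPKM and in ‘CF2’ at 9.78, 10.2 and 12.4. The cultivars thus overlapped at 2 DAFB, with ‘CF1’ replicate 3 inside the range of ‘RCF1’. PCP004622, PCP008156 (an alpha/beta hydrolase) and PCP012279 had 2.82, 2.67 and 2.45.

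At the low end, PCP022619, a carboxyl methyltransferase of the kind that makes methyl esters of plant acids, was at 18.8, 6.67 and 27.2 FPKM in ‘RCF1’ and 1.28, 1.43 and 1.21 in ‘CF1’, and listed at 0 in all libraries of 5 DAFB. Its interaction was -2.82 ± 0.51 (SE) with 12 libraries and -2.79 ± 0.54 without ‘CF1’ replicate 3 (adjusted P 0.0439). PCP013133, an oxoglutarate/iron-dependent oxygenase, and PCP030457, with a ribonucleotide reductase-related domain, were nearly confined to ‘RCF’. PCP013133 was at 8.31, 16.4 and 12.1 FPKM in ‘RCF1’ and 2.07, 1.54 and 1.92 in ‘RCF2’, and at or below 0.295 in all ‘CF’ libraries, with an interaction of -1.95 ± 0.27 (SE) with 12 libraries and -1.90 ± 0.28 without ‘CF1’ replicate 3. PCP018687, an LEA-14 protein of the dehydration-related kind, was at 63.0, 59.5 and 63.8 FPKM in ‘RCF1’ and 17.8, 16.6 and 20.7 in ‘RCF2’, but between 25.6 and 44 in all ‘CF’ libraries. Its interaction was -1.68 ± 0.26 (SE) with 12 libraries and -1.88 ± 0.19 without ‘CF1’ replicate 3 (adjusted P 0.00516). PCP037461, PCP012301 and the lipid transfer domain gene PCP020307 had -2.29, -2.06 and -1.64 without ‘CF1’ replicate 3.

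The general machinery of growing cells showed few or no called differences, but its medians depended on ‘CF1’ replicate 3. Of 215 cell division genes (kinesins, cyclins and PCNA), none was called in both fits, although 1 above 0 and 4 below 0 were called with 12 libraries. No call was made in either fit among 21 DNA replication genes, 30 tubulin genes and 44 glutathione S-transferases. Of all tested genes, 3.96% were called with 12 libraries and 2.79% without ‘CF1’ replicate 3. At these shares, the lists of 21, 30 and 44 genes would hold few calls or none. The larger lists were below the share of all tested genes called in both fits, 2.14%. It was 0% for the 215 cell division genes and 0.218% for 459 ribosomal protein genes. At an unadjusted P under 0.05 in limma and any size, 28 cell division, 5 DNA replication, 4 tubulin and 4 glutathione S-transferase genes passed with 12 libraries, and 36, 6, 10 and 6 without ‘CF1’ replicate 3. With 12 libraries, 15.8% of all tested genes passed in this way. The matching share without ‘CF1’ replicate 3 is not given here. The counts of that fit, core histones included, therefore have no share to be set against. The median interaction of the tubulins was -0.86 with 12 libraries and -0.28 without ‘CF1’ replicate 3, and only 2 and 3 of the 30 were above 0. For DNA replication genes it was -0.69 and -0.30, and for 459 ribosomal protein genes, of which 1 was called above 0, -0.39 and -0.15. Of 89 core histone genes, 15 passed at any size with 12 libraries and 37 without ‘CF1’ replicate 3. Core histones had 1 call in both fits, above 0. The call was PCP030381, annotated as an H2A variant, at 9.93, 4.38 and 15.7 FPKM in ‘CF1’ and between 0.809 and 1.9 in all other libraries.

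Of the cell type markers, CER1-like PCP000578, which belongs to the family that makes wax alkanes, was called above 0. It was at 12.2, 5.49 and 13.9 FPKM in ‘CF1’ and between 0.479 and 2.71 FPKM elsewhere. This was 1 of 8 tested epidermis genes (12.5%), against 2.14% of all tested genes called in both fits. No other epidermis gene had an interaction above 0 in either fit. The median of the 8 was -0.42 with 12 libraries and -0.23 without ‘CF1’ replicate 3. Among 25 tested xylem and vascular genes the called ones were the laccases PCP002776 and PCP039019. That is a share of 8%, against 2.14% of all tested genes. None of the regulators WOX4, NAC7, NAC105 and NAC66 was called in both fits. Of the 77 tested green tissue genes, 1 was called above and 1 below 0, a share of 2.6% and near the 2.14% of all tested genes. Pollen was searched by domain names that begin with "Pollen allergen", which no gene carried, and the 33 genes of the Pollen Ole e 1 allergen/extensin domain were not part of that search. The part of the difference in green tissue levels between cultivars in the calls was not tested.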

How the data were processed

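Skins of ‘CF’ and ‘RCF’ at 2 and 5 DAFB gave 12 libraries. The authors deposited FPKM values, fragments scaled by gene length and by library size. Per the submitters' processing notes, Trimmomatic 0.38, HISAT2 2.1.0, StringTie 1.3.4d and DESeq2 were used. The study names an improved apple genome as its reference, without a version, while the table gives scaffold positions, which are printed as they stand. The treatment of multiply mapped reads and strand are not given in the sources used here. FPKM is already scaled to depth, and read counts were not used, so the precision of low values could not be given.

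Values entered as log2(FPKM + 1), without further normalization. This scale understates changes of low genes. Genes with FPKM of at least 1 in 3 libraries entered a linear model per gene in limma (version 3.58.1, under R 4.3.3; lmFit, eBayes with trend, two-sided, adjusted by Benjamini-Hochberg over all tested genes). A call needed an unadjusted P under 0.05 and an absolute value of at least 1, the thresholds of the study. The same filter was kept without ‘CF1’ replicate 3. The code was tested on simulated data. Plots used matplotlib 3.10.9.

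Families (at least 10 tested genes) were ranked by the share of members called in both fits. Named genes were those the study names that were called, the 8 highest and 8 lowest interactions with an adjusted P under 0.05 without ‘CF1’ replicate 3 and a group mean of at least 10 FPKM, and up to 4 members per family or list. Others were named after their values were seen (uncalled core genes, neighbours on a scaffold, further called members). Members and lists were chosen with earlier results of these data known. Names come from the supplementary tables of the study, which cover some of the genes only.

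Same-numbered libraries were checked for pairing by the correlation of their deviations from the group means, which was over 0.1 in 3 of 18 pairs. These were replicate 2 of ‘CF1’ and ‘RCF1’ (0.335) and replicates 1 and 2 of ‘CF2’ and ‘RCF2’ (0.145 and 0.203), each within a stage. Libraries with other numbers reached 0.294 (‘CF1’ replicate 3 with ‘RCF1’ replicate 1). The main fits did not pair the libraries. Alternatives were other scalings, pseudocounts, filters, weights and thresholds, a replicate block, and each library left out.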

Additional observations from a re-analysis of the deposited data

Results flagged for a closer look

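The change from 2 to 5 DAFB differed between the cultivars, by the interaction test itself, for 1019 genes with all 12 libraries at the unadjusted threshold and for 160 genes after adjustment without ‘CF1’ replicate 3. With all 12 libraries no gene had an adjusted P under 0.05 in limma. Groups of 3 libraries are too small for a search for single outlying values.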

How the results depend on the processing

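The 1019 calls became 1175 with TPM rescaling, 1045 with quantile normalization, 1410 with a pseudocount of 0.1, 1012 without a filter and 1527 with limma array weights, of which 1502 had an adjusted P under 0.05. A filter at 10 FPKM left 513 calls among 12825 tested genes. With an adjusted P under 0.05 the count was 0, with or without the limit on size, against 4061 genes at an unadjusted P under 0.05. Leaving out 1 library gave between 718 (‘CF1’ replicate 3) and 2877 (‘CF1’ replicate 2) calls, and the latter held 979 of the 1019. An alternative chosen after seeing the data, without ‘CF1’ replicates 2 and 3, gave 1496 calls, of which 798 were among the 1019 and 1088 had an adjusted P under 0.05, with the only ‘CF1’ library left assumed to vary like the other groups. With the replicate block there were 1057 calls, 0 of them with an adjusted P under 0.05.

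Of the named genes, BGLU12 (PCP011059), a beta-glucosidase listed at 4.3 FPKM in ‘CF1’ replicate 3 against 247 and 356, had an interaction of -0.81 with 12 libraries, between -1.91 (without ‘CF1’ replicate 2) and 1.13 (without ‘CF1’ replicate 3) with a library left out, 0.84 with array weights and 0.87 without ‘CF1’ replicates 2 and 3. The homeodomain-like gene PCP024513 was at 0.04 with 12 libraries and 1.01 without ‘CF1’ replicate 3, but at -0.11 with TPM rescaling, -0.72 with a pseudocount of 0.1, -0.48 and -0.40 without ‘CF1’ replicates 1 and 2, -0.29 without ‘CF2’ replicate 2 and -0.12 without ‘RCF1’ replicate 1. The cause was not tested. The wound-induced gene PCP016594 was at 0.17 with 12 libraries and between -0.18 (without ‘CF1’ replicate 3) and 0.79 (without ‘CF1’ replicate 2) with a library left out. The CHI gene PCP027877 was at -0.18 with 12 libraries, between -0.34 (without ‘CF1’ replicate 2) and 0.076 (without ‘CF1’ replicate 3) with a library left out, and 0.025 with array weights. None of these 4 genes was called with 12 libraries, and the other 142 of the 146 genes examined kept their direction under these alternatives. Most of the 146 were picked for calls in the same direction in both fits, and the alternatives reuse the same libraries. Their kept direction is therefore no independent evidence. Precision at low FPKM is limited by depth.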
